A study of Mus musculus with 12 samples.

Results

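The HoxB genes are the homeobox genes of a single cluster on mouse chromosome 11, and they were read out of arrays of mouse embryonic fibroblasts that carried an oncogenic RAS, a hairpin against p53, or both in either order. The 10 genes were Hoxb1, Hoxb2, Hoxb3, Hoxb4, Hoxb5, Hoxb6, Hoxb7, Hoxb8, Hoxb9 and Hoxb13, chosen by name, and all 10 had a probe among the 21367 named genes of the array. Of these, 8 were well above background on all 12 arrays and were among the 14444 genes tested, Hoxb13 was above background on 4 arrays, and Hoxb1 on none. The 8 measured genes were all higher in fibroblasts that received RASV12 first than in those that received either agent alone, where 17.2% (against RASV12) and 21.7% (against shp53) of all genes tested were called higher. Between the 2 orders, Hoxb5, Hoxb6, Hoxb7, Hoxb8 and Hoxb9 were higher in RASV12-first cells, by 1.77-fold to 6.12-fold, where 7.33% of all genes tested were called higher. With only these 2 groups in the fit, Hoxb5 and Hoxb9 alone were called. Hoxb2, Hoxb3 and Hoxb4 did not pass the test between the 2 orders. Hoxb3 was read in this comparison from the brighter of its 2 probes. The dimmer one passed as higher in RASV12-first cells, by 2.94-fold. Hoxb9 stood at the other end in shp53-first cells, where it was lower than with either agent alone. Among all genes tested, 15.1% were called lower in shp53-first cells against RASV12 and 20.3% against shp53.

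The fibroblasts were taken from C57BL/6 embryos at stages E12.5 to E13.5, in days of gestation, and transduced with viral vectors. RASV12 is an oncogenic form of RAS, and shp53 is a short hairpin RNA against the mRNA of mouse p53. The groups were RASV12 followed by shp53 (RASV12-first, called TS cells by the submitters), shp53 followed by RASV12 (shp53-first, called T cells), RASV12 alone, and shp53 alone, with 3 arrays each described as independent biological replicates. No untransduced cells were analysed here, the 4 groups share the fibroblast background, and the body region of the fibroblasts is not given in the sources used here.

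Hox genes encode homeodomain transcription factors that give cells their position along the body axis. Within a cluster the genes lie in the order in which they act from head to tail, so that Hoxb1 and its neighbours are used in the hindbrain, the middle genes in the neck and trunk, and Hoxb9 and Hoxb13 farther back. Fibroblasts in culture keep much of the Hox pattern of the place they came from, and Polycomb and Trithorax proteins hold that pattern in chromatin.

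Values are log2 of the processed signal minus the 75th percentile of the same array, so that 0 is the level of that percentile, and 1 unit is a doubling. Between 56.6% and 62.4% of spots were well above background on an array, and 0 were saturated. In each group a pair of arrays was closer (r from 0.993 to 0.998 across the genes tested) than either was to the remaining array (r from 0.967 to 0.981). Were the arrays of such a pair not independent, the SDs and p-values given here would be too small, which was not tested. The arrays that stood apart were replicate 1 of RASV12-first, replicate 1 of shp53-first, replicate 2 of RASV12 and replicate 2 of shp53. Trp53, the target of the hairpin, averaged -3.99 ± 0.15 in RASV12-first cells, -3.61 ± 0.31 in shp53-first cells and -3.27 ± 0.25 in shp53 cells, against -0.56 ± 0.20 in RASV12 cells (SD, n = 3 each). Of the 9 fibroblast markers, all 9 were above background in every group. Their summed linear signal, in units of the 75th percentile, was 262 to 485 in RASV12-first, 253 to 387 in shp53-first, 244 to 432 in RASV12 and 439 to 552 in shp53 cells. Of 7 skeletal muscle markers, 1 was above background on all arrays of RASV12-first, shp53-first and RASV12 cells and 2 in shp53 cells. The 2 that were tested, Acta1 and Des, summed to 1.15 to 2.20 in RASV12-first, 0.272 to 1.03 in shp53-first, 3.03 to 3.63 in RASV12 and 7.82 to 15.1 in shp53 cells. Macrophage markers also moved with the groups: 4 of 9 were above background on all arrays of RASV12-first cells, 4 of 9 in shp53-first, 7 of 9 in RASV12 and 9 of 9 in shp53 cells. Their sum was 5.98 to 9.07 in RASV12-first, 8.93 to 12.4 in shp53-first, 9.24 to 20.5 in RASV12 and 11.1 to 67.7 in shp53 cells. The part of these markers in the results below was not tested. In bulk RNA such as this, fewer cells of a type and less RNA per cell cannot be told apart.

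RefSeq promoter windows (assembly GRCm38.p6, all on the plus strand, 250 bases before to 50 after the start) were at hand for 3 of the 10 genes. They are shown because they stand for the undetected head end of the cluster (Hoxb1), a gene that did not pass the test between the 2 orders (Hoxb4) and a gene that was higher in RASV12-first cells (Hoxb8). Capitals mark matches, on either strand, to 3 motifs: TTTATA or TTTATG, bound by the Cdx factors that act on trunk Hox genes, TGATNNAT, bound by pairs of a HOX and a PBX protein, and CCAAT, bound by NF-Y.
Hoxb1: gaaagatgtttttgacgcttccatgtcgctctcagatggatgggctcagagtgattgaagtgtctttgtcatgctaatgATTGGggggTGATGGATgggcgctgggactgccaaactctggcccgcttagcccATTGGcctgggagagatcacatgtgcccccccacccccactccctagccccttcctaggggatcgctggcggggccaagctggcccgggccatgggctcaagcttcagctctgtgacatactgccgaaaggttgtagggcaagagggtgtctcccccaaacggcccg
Hoxb4: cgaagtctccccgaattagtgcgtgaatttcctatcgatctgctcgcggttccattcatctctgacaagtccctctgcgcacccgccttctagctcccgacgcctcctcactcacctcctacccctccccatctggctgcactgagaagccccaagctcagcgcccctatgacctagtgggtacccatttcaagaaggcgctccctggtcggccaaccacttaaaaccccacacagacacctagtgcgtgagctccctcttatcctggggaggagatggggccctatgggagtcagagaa
Hoxb8: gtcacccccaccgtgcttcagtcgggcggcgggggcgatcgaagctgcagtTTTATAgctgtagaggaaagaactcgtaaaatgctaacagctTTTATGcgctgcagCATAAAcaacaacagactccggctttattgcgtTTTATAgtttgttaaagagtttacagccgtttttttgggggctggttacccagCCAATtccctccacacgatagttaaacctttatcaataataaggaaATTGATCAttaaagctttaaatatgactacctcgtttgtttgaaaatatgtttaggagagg

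These windows lie at chr11:96365508-96365807 (Hoxb1), chr11:96318017-96318316 (Hoxb4) and chr11:96281655-96281954 (Hoxb8). The Hoxb8 window held 4 matches to the Cdx letters, 1 to the HOX and PBX letters and 1 to CCAAT. Among all 32851 promoter windows in the table, 22.8% held at least 1 Cdx match and 0.289% held as many as Hoxb8. The Hoxb1 window held 1 HOX and PBX match, as did 8.85% of all windows, and 2 CCAAT matches, which 37.4% of windows held at least once. The Hoxb4 window held none of these letters, which says nothing about the factors. No match of one motif overlapped a match of another, and G and C made up 42.3% of the Hoxb8 window, 58% of Hoxb4 and 59.3% of Hoxb1, against a median of 52.7%.

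**Figure D1:**
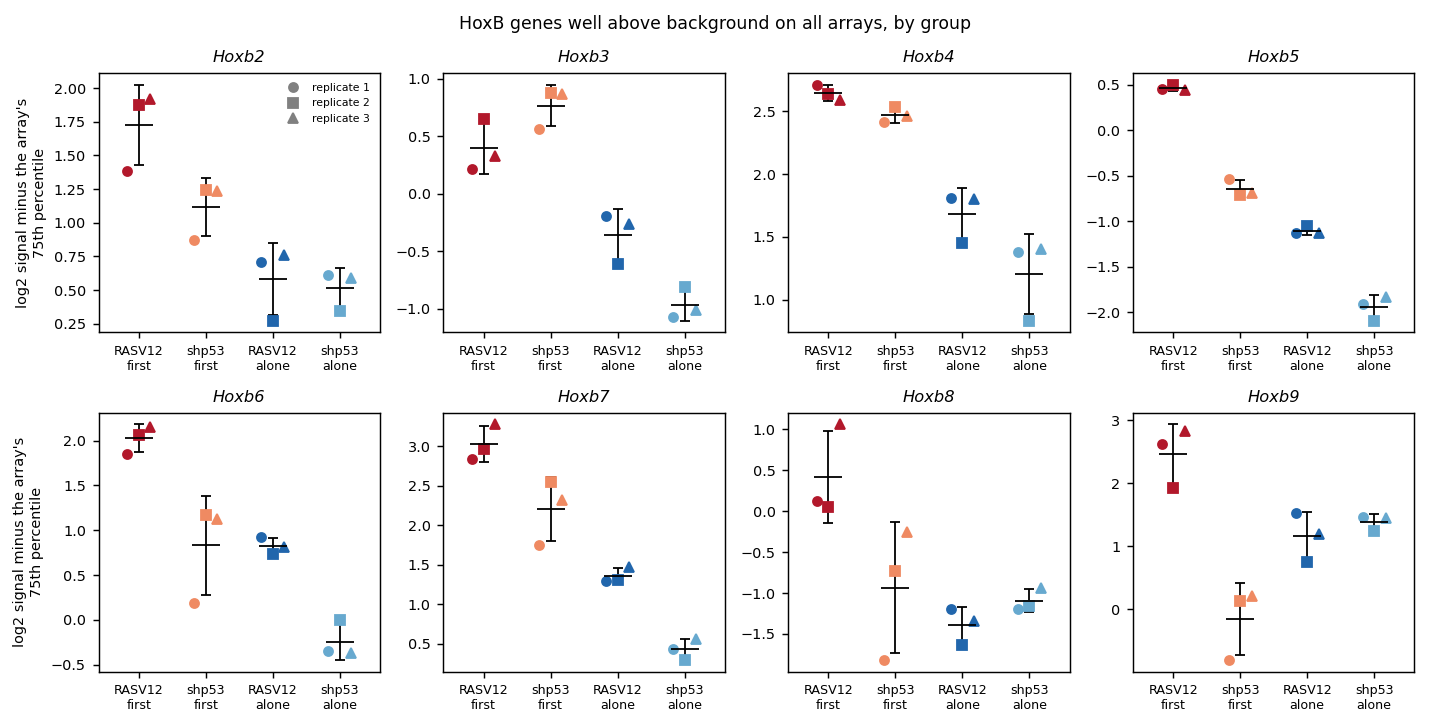
Signal of the 8 measured HoxB genes on each array (log2 signal minus the array's 75th percentile; own scale in each panel), with RASV12-first at the left and shp53 alone at the right. Points are arrays, with shape giving the replicate, and black marks are the group mean and SD (n = 3). Hoxb5 and Hoxb7 fall in 4 separate levels, from RASV12-first down to shp53, whereas Hoxb9 is lowest in shp53-first cells.

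At the head end of the cluster, Hoxb1, which sets the identity of a hindbrain segment, lay between -8.40 and -7.36 over the 12 arrays and was not well above background on any. The next genes were measured throughout. Hoxb2, a hindbrain gene that Hoxb1 activates in the mouse embryo, read 1.38, 1.87 and 1.92 in RASV12-first cells, 0.87, 1.25 and 1.24 in shp53-first cells, 0.71, 0.27 and 0.76 in RASV12 cells, and 0.61, 0.35 and 0.59 in shp53 cells. All 3 RASV12-first arrays were above all others, the shp53-first arrays came next, and RASV12 and shp53 arrays overlapped.

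Hoxb3, which acts in the hindbrain and the pharyngeal arches, was measured by 2 probes, and the brighter one stands for it. That probe gave 0.22, 0.65 and 0.33 in RASV12-first cells, 0.56, 0.87 and 0.87 in shp53-first cells, -0.19, -0.61 and -0.26 in RASV12 cells, and -1.07, -0.81 and -1.01 in shp53 cells. The arrays of the 2 orders overlapped, RASV12 arrays were below both, and shp53 arrays were lowest. Hoxb4, known for expanding blood stem cells when overexpressed, read 2.71, 2.64 and 2.59 in RASV12-first cells, 2.41, 2.53 and 2.47 in shp53-first cells, 1.81, 1.45 and 1.80 in RASV12 cells, and 1.38, 0.83 and 1.40 in shp53 cells. The spread of Hoxb4 within either order was small (SD 0.06 and 0.06), and replicate 2 was the low array in both RASV12 and shp53 cells, where it was among the arrays that stood apart.

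In the middle of the cluster, Hoxb5, which acts in lung mesenchyme and in neural crest cells of the gut, gave 0.45, 0.50 and 0.44 in RASV12-first cells, -0.54, -0.71 and -0.69 in shp53-first cells, -1.13, -1.05 and -1.13 in RASV12 cells, and -1.90, -2.09 and -1.83 in shp53 cells. The 4 groups were fully separate, and the SD within a group was 0.03 to 0.13. Hoxb6, a gene of the trunk and of limb mesoderm, read 1.85, 2.06 and 2.16 in RASV12-first cells, 0.19, 1.17 and 1.13 in shp53-first cells, 0.93, 0.74 and 0.81 in RASV12 cells, and -0.35, -0.01 and -0.37 in shp53 cells. The first shp53-first array lay below all RASV12 arrays and the other two above them, so these groups overlapped, while RASV12-first was above and shp53 below both.

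Hoxb7, active in the duct that forms the kidney's collecting system, read 2.84, 2.97 and 3.28 in RASV12-first cells, 1.75, 2.54 and 2.31 in shp53-first cells, 1.30, 1.31 and 1.47 in RASV12 cells, and 0.43, 0.29 and 0.56 in shp53 cells. As with Hoxb5, no 2 groups overlapped. Hoxb8, used to hold myeloid progenitors in an immature state in culture, gave 0.12, 0.06 and 1.06 in RASV12-first cells, -1.82, -0.73 and -0.26 in shp53-first cells, -1.20, -1.63 and -1.34 in RASV12 cells, and -1.19, -1.15 and -0.93 in shp53 cells. Its arrays were the most scattered of the 8 genes in both orders (SD 0.56 in RASV12-first and 0.80 in shp53-first cells), and the shp53-first arrays spanned those of RASV12 and of shp53.

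Hoxb9, which patterns the ribs and the mammary gland, read 2.63, 1.92 and 2.83 in RASV12-first cells, -0.81, 0.12 and 0.22 in shp53-first cells, 1.52, 0.75 and 1.20 in RASV12 cells, and 1.46, 1.24 and 1.45 in shp53 cells. Every shp53-first array lay below every other array, every RASV12-first array above every other, and RASV12 and shp53 arrays overlapped. Hoxb13, which ends axis growth at the tail and marks the prostate, was not well above background on any array of either order, and was so on 2 of 3 arrays of RASV12 and 2 of 3 of shp53 cells. It measured -7.47, -6.78 and -8.03 in RASV12-first cells, -6.55, -8.35 and -7.32 in shp53-first cells, -5.51, -6.34 and -5.58 in RASV12 cells, and -6.11, -5.10 and -5.64 in shp53 cells. All of these values lay at or near the background of their arrays, and Hoxb13 was not tested.

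Differences were tested with limma in 1 fit over the 12 arrays, and calls were made at an adjusted p under 0.05 (Benjamini-Hochberg over the 14444 genes). With 3 arrays against 3 an exact permutation test of a single gene cannot give a p under 0.1. The 6 comparisons share arrays with each other, so their results are not independent, and the p-values reflect the scatter of the arrays within groups.

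The comparison of RASV12-first with shp53-first cells asks whether the order of the same 2 agents matters. Of the 8 genes, 5 rose in RASV12-first cells and 0 fell, where 15.8% of all genes tested were called, 7.33% higher and 8.47% lower. The median of the 8 log2 fold changes was 0.97, against 0.00058 over all genes tested. Hoxb9 had the highest log2 fold change of the 8, 2.61 ± 0.32 (SE), a 6.12-fold difference (adjusted p = 3.75e-04). Hoxb8 rose by 1.35 ± 0.38 (adjusted p = 0.0355), Hoxb7 by 0.82 ± 0.20 (adjusted p = 0.0197), Hoxb6 by 1.19 ± 0.24 (adjusted p = 0.00776) and Hoxb5 by 1.11 ± 0.11 (adjusted p = 1.16e-04). Each slide held 1 array of each group. The arrays of the 2 orders did not overlap in any of these 5 genes. Each gene was therefore bound to be higher in RASV12-first cells on all 3 slides, which adds nothing to the calls. The share of all genes without overlap in this comparison is not given here.

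Toward the head end, Hoxb2, Hoxb4 and the brighter Hoxb3 probe did not pass the test in this comparison. Hoxb2 had a log2 fold change of 0.61 ± 0.20 (adjusted p = 0.062) and was higher in RASV12-first cells on 3 of 3 slides. Hoxb4 had 0.17 ± 0.17 (adjusted p = 0.554), and Hoxb3 had -0.37 ± 0.17 (adjusted p = 0.184) and was lower on 3 of 3 slides. The dimmer Hoxb3 probe, described below, passed as higher in RASV12-first cells, at 1.55 ± 0.33 (adjusted p = 0.0106). The calls of Hoxb6, Hoxb7 and Hoxb8 depended on the spread that was used: with only these 2 groups in the fit, Hoxb5 and Hoxb9 alone were called. Same-numbered arrays of the 2 orders deviated together, but so did replicate 2 of either order with replicate 3 of the other (r of 0.42 and 0.49). Deviations from a group mean cancel out within the group, and replicate 1 stood apart in both orders. These values therefore cannot show whether arrays were paired by number. With the replicate number added as a block to the fit of these 2 groups, a setting chosen after seeing the data, 6 genes were called. These were the 5 of the 12-array fit, Hoxb6, Hoxb7 and Hoxb8 included, and Hoxb2 (adjusted p = 0.0362). Of the 8 genes 2 were called when the closest arrays of each group were averaged. Without replicate 2 or without replicate 3 of RASV12-first cells, 3 genes were called and the Hoxb7 call was lost (adjusted p = 0.0508 and 0.0792), and Hoxb8 lost its call in 8 of the 12 fits that left out 1 array, all but those without replicate 1 of RASV12-first, replicate 3 of shp53-first or replicate 2 of RASV12 or of shp53. Normexp background correction left 0 called, which became 4 once 75 extreme local backgrounds were replaced.

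**Figure D2:**
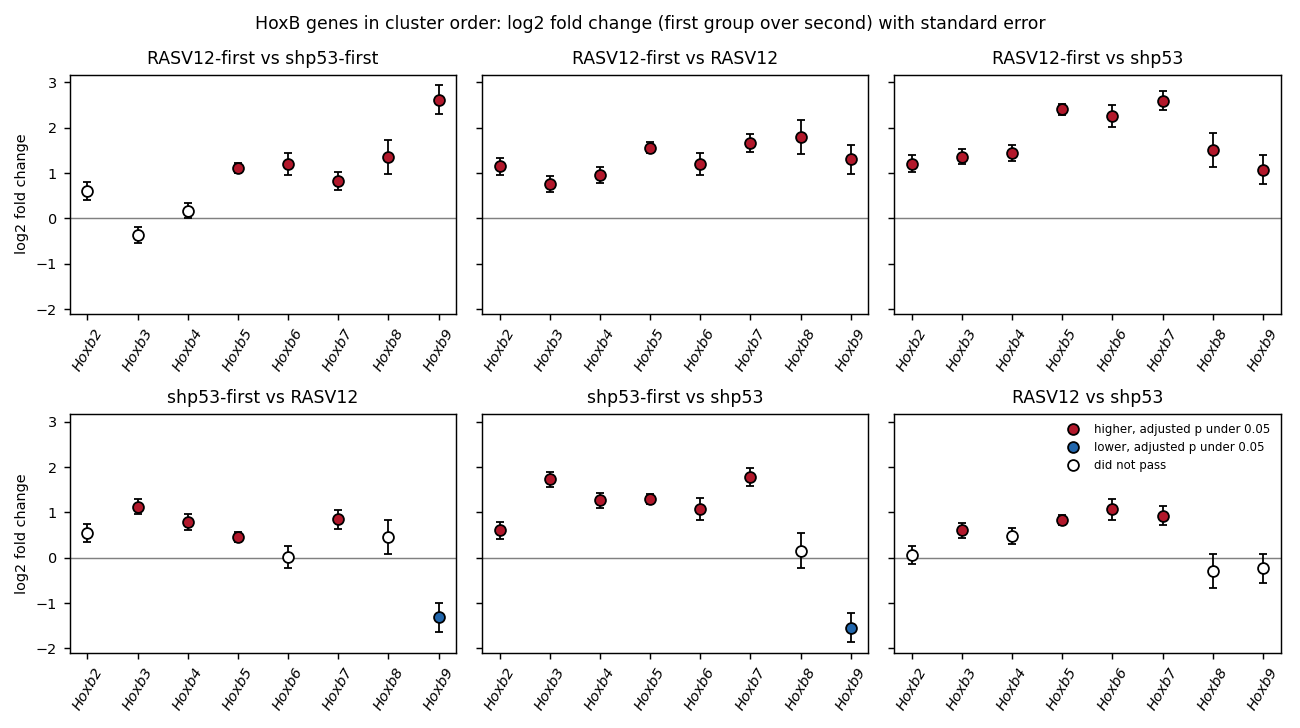
Log2 fold change (vertical axis, first-named group over second) of the 8 measured HoxB genes in cluster order, with bars of 1 standard error from the limma fit. Red and blue points passed an adjusted p under 0.05 and open points did not. In RASV12-first against shp53-first cells the points from Hoxb5 to Hoxb9 lie between 0.82 and 2.61. Those of Hoxb2, Hoxb3 and Hoxb4 lie between -0.37 and 0.61, with Hoxb2 at 0.61 near Hoxb7 at 0.82. Hoxb3 is drawn from its brighter probe, and its dimmer probe, not drawn, gave 1.55 in that comparison (adjusted p = 0.0106).

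Compared with RASV12 alone, RASV12-first cells also received the hairpin later. The hairpin and the further transduction that brought it cannot be told apart in this design. All 8 genes rose, where 38.8% of all genes tested were called and 17.2% were higher, and their median log2 fold change was 1.25 against -0.07 over all genes. The change was 1.80 ± 0.38 for Hoxb8 (adjusted p = 0.00408), 1.67 ± 0.20 for Hoxb7 (adjusted p = 1.69e-04) and 1.56 ± 0.11 for Hoxb5 (adjusted p = 5.22e-06). It was smaller for the other genes, 1.30 for Hoxb9, 1.20 for Hoxb6, 1.15 for Hoxb2, 0.96 for Hoxb4 and 0.76 for Hoxb3, with adjusted p from 0.00134 to 0.00924. No array of the 2 groups overlapped in any of the 8 genes, where 22.8% of all genes tested were higher without overlap. Averaging the closest arrays or applying normexp correction left 2 genes called in either case.

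Against shp53 alone, RASV12-first cells also showed 8 of 8 genes higher, where 45.5% of all genes tested were called, 21.7% higher and 23.8% lower. The median log2 fold change was 1.47, against 0.02 over all genes. Hoxb7 rose by 2.60 ± 0.20 (adjusted p = 5.46e-06), Hoxb5 by 2.40 ± 0.11 (adjusted p = 1.61e-07) and Hoxb6 by 2.26 ± 0.24 (adjusted p = 4.68e-05), which are 6.06-fold, 5.29-fold and 4.81-fold. The ends of the measured run moved less, by 1.21 for Hoxb2 (adjusted p = 6.98e-04) and 1.08 for Hoxb9 (adjusted p = 0.0192). The Hoxb9 call was lost without replicate 2 of shp53 or without replicate 3 of RASV12-first cells, and 2 of the 8 genes were called with normexp correction. In this comparison 7 of 9 macrophage markers fell in RASV12-first cells and 0 rose, 4 of 9 fibroblast markers fell and 1 rose, and both tested muscle markers fell.

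In shp53-first against RASV12 cells, 4 of the 8 genes rose and 1 fell, where 25.4% of all genes tested were called, 10.2% higher and 15.1% lower. Hoxb3 rose by 1.12 ± 0.17 (adjusted p = 0.00135), Hoxb7 by 0.84 ± 0.20 (adjusted p = 0.0133), Hoxb4 by 0.78 ± 0.17 (adjusted p = 0.00831) and Hoxb5 by 0.46 ± 0.11 (adjusted p = 0.0156). Hoxb9 fell by 1.31 ± 0.32 on the log2 scale, a 2.48-fold lower signal (adjusted p = 0.0146). Hoxb2 (0.54, adjusted p = 0.0691), Hoxb8 (0.46, adjusted p = 0.415) and Hoxb6 (0.01, adjusted p = 0.988) did not pass the test. Neither did the dimmer Hoxb3 probe, described below, which was at -0.61 (adjusted p = 0.211). Without replicate 1 of RASV12 cells 2 genes were called, with Hoxb5, Hoxb7 and Hoxb9 no longer so. Hoxb5 also lost its call without replicate 3 of RASV12 cells, and Hoxb7 without replicate 2 of shp53-first cells. None (0) of the genes was called with the closest arrays averaged or with normexp correction.

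In shp53-first against shp53 cells, 6 genes rose and 1 fell, where 37.6% of all genes tested were called, 17.3% higher and 20.3% lower. The later RASV12 and the further transduction that brought it cannot be told apart here. Hoxb7 rose by 1.77 ± 0.20 (adjusted p = 1.01e-04), Hoxb3 by 1.73 ± 0.17 (adjusted p = 3.99e-05), Hoxb5 by 1.30 ± 0.11 (adjusted p = 1.92e-05), Hoxb4 by 1.27 ± 0.17 (adjusted p = 2.91e-04), Hoxb6 by 1.07 ± 0.24 (adjusted p = 0.00629) and Hoxb2 by 0.60 ± 0.20 (adjusted p = 0.0341). Hoxb9 fell by 1.54 ± 0.32, a 2.90-fold lower signal (adjusted p = 0.00399), and Hoxb8, with 0.16 ± 0.38 (adjusted p = 0.765), did not pass. Hoxb9 fell in the comparison in which Hoxb2 to Hoxb7 rose, with Hoxb3 read from its brighter probe. The dimmer Hoxb3 probe, described below, was at -0.60 and did not pass (adjusted p = 0.181). The Hoxb2 call was lost when any 1 of the 3 shp53 arrays, or replicate 2 or 3 of shp53-first cells, was left out. Of the macrophage markers, 7 of 9 were lower in shp53-first cells, as were 4 of 9 fibroblast markers and both tested muscle markers. Normexp correction left 1 gene called.

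In RASV12 against shp53 cells, each with 1 agent, 4 of 8 genes rose and 0 fell, where 27.1% of all genes tested were called, 14.3% higher and 12.8% lower. Hoxb6 rose by 1.06 ± 0.24 (adjusted p = 0.00846), Hoxb7 by 0.93 ± 0.20 (adjusted p = 0.00656), Hoxb5 by 0.84 ± 0.11 (adjusted p = 4.23e-04) and Hoxb3 by 0.61 ± 0.17 (adjusted p = 0.0234). Hoxb4 had 0.48 (adjusted p = 0.0587), Hoxb2 0.06 (adjusted p = 0.841), Hoxb9 -0.23 (adjusted p = 0.64) and Hoxb8 -0.30 (adjusted p = 0.601). The Hoxb3 call was lost without replicate 1 or 3 of either group, and its dimmer probe, described below, gave 0.0037 (adjusted p = 0.995). With the closest arrays averaged 1 gene was called, and 0 with normexp correction. Here too 7 of 9 macrophage markers, 4 of 9 fibroblast markers and both tested muscle markers were lower in RASV12 cells.

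Ordering the group means gave RASV12-first, shp53-first, RASV12 and shp53, from high to low, for Hoxb2, Hoxb4, Hoxb5, Hoxb6 and Hoxb7. Each step was called for Hoxb5 and for Hoxb7. For Hoxb6 the shp53-first and RASV12 means, 0.83 ± 0.55 and 0.82 ± 0.10, did not differ beyond their spread, for Hoxb4 only the step between shp53-first and RASV12 was called, and for Hoxb2 no single step was. Hoxb3, read from its brighter probe, placed shp53-first above RASV12-first, a step that was not called. Hoxb8 placed RASV12 last, below shp53, but the highest RASV12 array (-1.197) and the lowest shp53 array (-1.193) nearly touched. No step among its 3 lower groups was called. For Hoxb9 the order was RASV12-first, shp53, RASV12 and shp53-first, in which only the step between shp53 and RASV12 was not called.

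Across the 12 arrays the 8 genes differed in how alike their patterns were, as a description over arrays that share groups and slides. Pearson's r was 0.96 between Hoxb5 and Hoxb7, the highest of the pairs, and -0.24 between Hoxb3 and Hoxb9, the lowest. Hoxb9 had r of 0.06 with Hoxb4, 0.24 with Hoxb7 and 0.68 with its neighbour Hoxb8. Among all genes tested, the pattern most like Hoxb2 was that of Stard7 (r = 0.986), followed by Usp37 and Ssx2ip. For Hoxb3 it was Zfp105 (0.979), for Hoxb4 Zfp819 (0.973), for Hoxb5 Scnm1 (0.983), for Hoxb6 Tdp1 (0.991), for Hoxb7 Slc25a28 (0.983), for Hoxb8 Vps9d1 (0.934) and for Hoxb9 Vta1 (0.959). No HoxB gene was among the 3 closest of another.

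The second Hoxb3 probe, dimmer and carrying the same accession, did not follow the first. It gave -0.82, -1.22 and -1.95 in RASV12-first cells, -2.77, -2.89 and -2.99 in shp53-first cells, -1.72, -2.87 and -2.24 in RASV12 cells, and -1.98, -2.65 and -2.21 in shp53 cells. With this probe Hoxb3 was higher in RASV12-first than in shp53-first cells, by 1.55 ± 0.33 (adjusted p = 0.0106 over 19044 probes), where the brighter probe gave -0.37. Against RASV12 and shp53 cells it was higher in RASV12-first cells by 0.95 in either case (adjusted p = 0.0462 and 0.0399), in the same direction as the brighter probe. In shp53-first cells it was at -0.61 against RASV12 and -0.60 against shp53 cells, which did not pass (adjusted p = 0.211 and 0.181), where the brighter probe rose by 1.12 and 1.73. In RASV12 against shp53 cells it gave 0.0037 (adjusted p = 0.995), where the brighter probe rose by 0.61. Which transcripts each probe detects is not given in the sources used here, so the direction of Hoxb3 between the 2 orders rests on the probe.

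**Figure D3:**
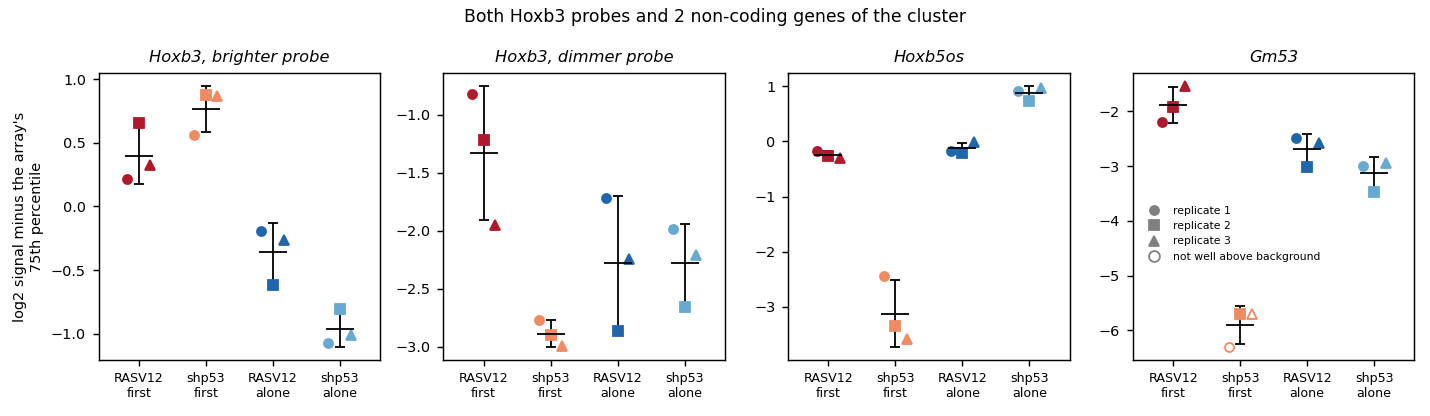
Signal on each array (log2 signal minus the array's 75th percentile; own scale in each panel) of both Hoxb3 probes and of the non-coding genes Hoxb5os and Gm53, with the group mean and SD (n = 3). Open points were not well above background. The dimmer Hoxb3 probe, Hoxb5os and Gm53 are lowest in shp53-first cells, and the brighter Hoxb3 probe is highest there.

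Several non-coding genes lie within the cluster in the RefSeq table, and 2 of them were tested. Hoxb5os, an antisense transcript listed between Hoxb7 and Hoxb6, read -0.17, -0.27 and -0.31 in RASV12-first cells, -2.44, -3.34 and -3.58 in shp53-first cells, -0.17, -0.20 and -0.01 in RASV12 cells, and 0.91, 0.73 and 0.98 in shp53 cells. The shp53-first arrays were below all others and the shp53 arrays above all others. Its log2 fold change was 2.87 ± 0.24 in RASV12-first against shp53-first cells (adjusted p = 3.60e-05), -1.12 against shp53 cells (adjusted p = 0.00401), and -0.12 against RASV12 cells (adjusted p = 0.721). In shp53-first cells it was 7.97-fold lower than in RASV12 cells and 15.9-fold lower than in shp53 cells (adjusted p = 3.62e-05 and 2.07e-06). Hoxb5 and Hoxb7 rose in both comparisons. Hoxb6 rose against shp53 cells only (1.07) and was at 0.01 against RASV12 cells (adjusted p = 0.988). The group order of Hoxb5os was therefore unlike that of the coding genes beside it, with shp53 highest.

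Gm53, a non-coding gene between Hoxb13 and Hoxb9, showed the lowest levels in the same cells as Hoxb9. It measured -2.20, -1.93 and -1.54 in RASV12-first cells, -6.30, -5.70 and -5.69 in shp53-first cells, -2.48, -3.01 and -2.58 in RASV12 cells, and -2.99, -3.47 and -2.94 in shp53 cells. Only 1 of the 3 shp53-first arrays was well above background. The log2 fold change was 4.01 ± 0.24 in RASV12-first against shp53-first cells (adjusted p = 3.10e-06), and in shp53-first cells Gm53 was at -3.21 against RASV12 cells and -2.77 against shp53 cells (adjusted p = 2.43e-05 and 2.06e-05). The size of these 3 differences is uncertain, since they rest on shp53-first arrays at or near background. RASV12-first cells were also above RASV12 cells, by 0.80 (adjusted p = 0.0256), and above shp53 cells, by 1.24 (adjusted p = 0.00222). All 5 calls of Gm53 were lost with normexp correction, which gave 1.51 for RASV12-first against shp53-first cells. With extreme local backgrounds replaced that value was 1.37 and passed (adjusted p = 0.00115), as did 0.92 against shp53 cells (adjusted p = 0.00384). In shp53-first cells Gm53 was then at -0.82 against RASV12 cells (adjusted p = 0.015) and at -0.45 against shp53 cells, which did not pass (adjusted p = 0.0976). RASV12-first against RASV12 cells, at 0.55, did not pass either (adjusted p = 0.0557). Gm11538, a predicted gene also lying between Hoxb13 and Hoxb9, was not well above background on any array.

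**Figure D4:**
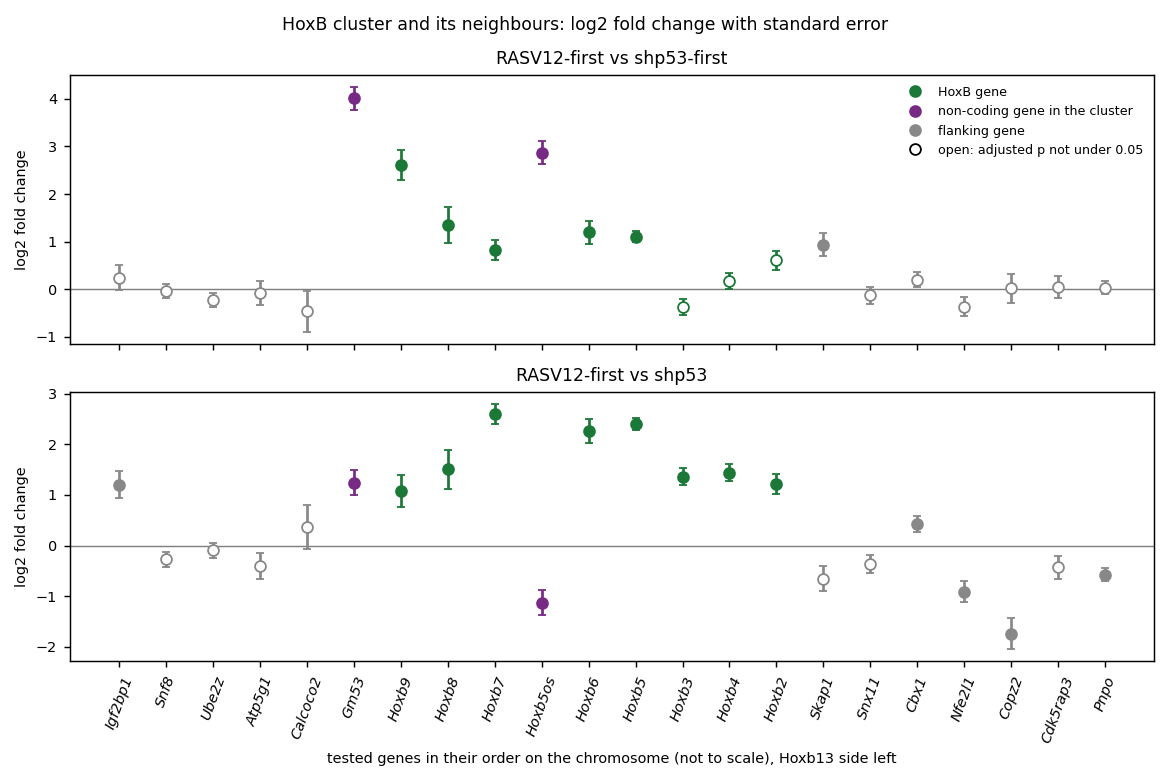
Log2 fold change with 1 standard error of the tested genes of the cluster and of the genes on either side, in their order on the chromosome and not to scale, for RASV12-first over shp53-first (top) and RASV12-first over shp53 (bottom). Filled points passed an adjusted p under 0.05. In the top panel the filled points run from Gm53 to Hoxb5, with Skap1 as the 1 flanking gene called.

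Genes beside the cluster were read in the same fit, as the 8 named genes on each side, of which 12 of 16 were tested. Their counts are to be read beside the shares of all genes given above for each comparison. In RASV12-first against shp53-first cells 1 of the 12 was higher and 0 lower, with a median log2 fold change of -0.01. The gene called was Skap1, an adaptor of T cell receptor signalling that lies next to Hoxb1 (0.94 ± 0.25, adjusted p = 0.0276). On the side of Hoxb13, limma called 0 of 5 tested genes, and 0 had an unadjusted p under 0.05. Against RASV12 cells, RASV12-first cells had 0 flanking genes higher and 3 lower, and against shp53 cells 2 higher and 3 lower, where 8 of 8 HoxB genes were higher in both. In shp53-first cells 0 flanking genes were higher and 2 lower against RASV12 cells, and 1 higher and 3 lower against shp53 cells. In RASV12 against shp53 cells limma called 0 of 12, and 3 had an unadjusted p under 0.05.

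**Figure D5:**
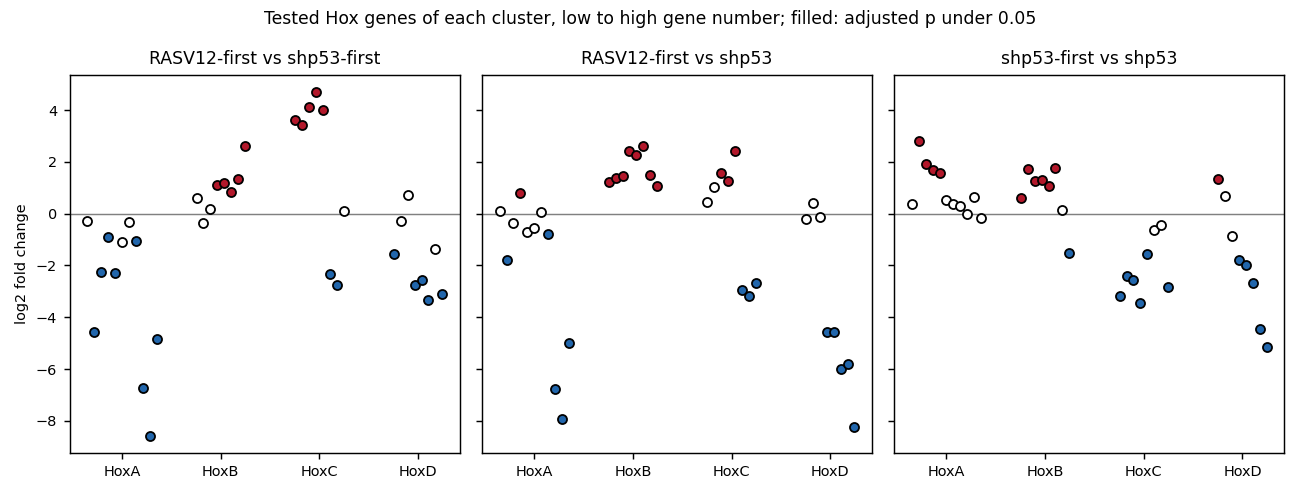
Log2 fold change (vertical axis) of every tested Hox gene in 3 comparisons, set side by side by cluster and from low to high gene number within a cluster. Red and blue points passed an adjusted p under 0.05 as higher or lower in the first-named group, and open points did not pass. In RASV12-first against shp53-first cells HoxB has 5 higher and 0 lower, HoxA 0 higher and 8 lower, HoxC 5 higher and 2 lower, and HoxD 0 higher and 5 lower.

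The other Hox clusters were read in the same fit, beside the same shares of all genes called in each comparison. All 29 HoxA, HoxC and HoxD genes had a probe and 27 were tested, and in RASV12-first against shp53-first cells 5 were higher and 15 lower, with a median log2 fold change of -1.36 beside 0.97 for the HoxB genes. By cluster this was 0 higher and 8 lower of 11 HoxA genes (median -2.25), 5 higher and 2 lower of 8 HoxC genes (median 3.52, above that of HoxB), and 0 higher and 5 lower of 8 HoxD genes (median -2.07). The 4 with the smallest adjusted p were Hoxc8, higher in RASV12-first cells, and Hoxa11, Hoxa2 and Hoxa10, lower. In RASV12-first against shp53 cells, where 8 of 8 HoxB genes were higher, 1 HoxA gene was higher and 5 lower, 3 HoxC genes were higher and 3 lower, and 0 HoxD genes were higher and 5 lower. In shp53-first against shp53 cells 4 HoxA genes were higher and 0 lower, 0 HoxC genes were higher and 6 lower, and 1 HoxD gene was higher and 5 lower, beside 6 and 1 for HoxB. In RASV12 against shp53 cells 2 of the 27 were higher and 1 lower, beside 4 and 0 of 8.

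Genes of classes that work with HOX proteins or on Hox loci were listed by name. Some TALE homeodomain proteins bind DNA with HOX proteins. Of 10 tested genes of this class, 2 were higher and 2 lower in RASV12-first against shp53-first cells. Among all genes tested the shares were 7.33% higher and 8.47% lower. Pbx3 (0.73 ± 0.20) and Tgif2 (0.80 ± 0.23) were higher and Meis3 (-0.38 ± 0.11) was lower, with adjusted p from 0.0329 to 0.0383, as was Pknox2, a gene of the same class. Of 19 tested chromatin regulators of Hox loci, 0 were higher and 1 lower in that comparison. Set against RASV12 alone, RASV12-first cells had 8 of the 19 higher and 0 lower, and against shp53 alone 7 were higher and 1 lower. Of all genes tested, 17.2% were higher and 21.7% lower in the first of these comparisons, and 21.7% and 23.8% in the second. In shp53-first cells 8 of the 19 were higher and 1 lower against RASV12, and 6 higher and 1 lower against shp53. The shares of all genes there were 10.2% higher and 15.1% lower, and 17.3% and 20.3%.

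Retinoic acid, made by Aldh1a enzymes and sensed by RAR proteins, and Cdx factors feed into Hox clusters in the embryo. Of 12 tested genes of these inputs, 0 were higher and 2 lower in RASV12-first against shp53-first cells, namely Aldh1a2, which makes retinoic acid in trunk mesoderm, and Rarb, a retinoic acid receptor that is itself induced by retinoic acid. Rarb had a log2 fold change of -3.33 ± 0.57 (adjusted p = 0.00295). Against RASV12, RASV12-first cells had 2 of the 12 higher and 4 lower, and against shp53 3 higher and 5 lower. Of all genes tested, 17.2% were higher and 21.7% lower against RASV12, and 21.7% and 23.8% against shp53. In shp53-first cells 2 of the 12 were higher and 3 lower against RASV12 cells, and 3 higher and 3 lower against shp53 cells. The shares of all genes there were 10.2% higher and 15.1% lower, and 17.3% and 20.3%. The part of the listed inputs in the HoxB differences was not tested.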

How the data were processed

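RNA of 12 samples was measured on 1-colour Agilent arrays, with 100 ng as input per the labels' protocols. The deposited files hold a processed signal intensity per spot, background-subtracted and detrended within its array per the file headers, with unnormalized median pixel intensities of spot and local background. Spot flags in these deposited files are another kind of value, 0 or 1. The headers give Feature Extraction version 11.5.1.1, the submitters' processing notes 10.7.3.1. A further table by the authors gives log2 values of 25916 probes, and its columns had r of 0.99 to 0.9998 across probes with values rebuilt from the arrays.

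Spots marked non-uniform or outlying were left out (1717 values, 0.333%). From log2 of the processed signal the 75th percentile of the 43020 non-control spots of the array was subtracted, and spots of a probe were averaged. A probe was kept where every array of some group had it well above background (23899 of 39429), and the brightest kept probe stood for a gene. Accessions were named through RefSeq (28330 probes with 1 gene, 11099 without), used for names, gene order and promoters, since the headers name another build (mm9). limma 3.58.1 in R 4.3.3 fitted 1 mean per group and was tested on simulated data, with arrays read by data.table (1.17.8). Figures used Python 3.11.15 with matplotlib 3.10.9.

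The members and lists were chosen with earlier results of these data known. Named genes were the 10 members, Trp53, up to 4 genes of each list with the smallest adjusted p between the 2 orders, and the tested genes most like each member, and 1 gene so chosen is not reported here. The genes Hoxb5os, Gm53 and Gm11538 were added after their values were seen. In RASV12-first against shp53-first cells, fibroblast markers gave 0 higher and 2 lower of 9 tested, macrophage 0 and 0 of 9, endothelial 1 and 0 of 4, epithelial 0 and 0 of 1, neural and neural crest 1 and 2 of 7, and skeletal muscle 1 and 0 of 2.

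Each slide carried 1 array per group, numbered like the replicate. Same-numbered arrays of the 2 orders deviated together (r of 0.60, 0.45 and 0.32), but of all 18 same-numbered pairs 8 had r over 0.1 (lowest -0.34). Replicate 2 of shp53-first with 3 of RASV12-first had r of 0.49, and 3 with 2 had 0.42. Pairs of replicate 1 of either order with 2 or 3 of the other had -0.55 to -0.43. Since deviations from a group mean cancel out within the group, these values cannot show whether arrays were paired by number. Alternatives covered background, scaling, filter, probe choice, spread, block, threshold, the authors' log2 table and leaving out arrays. Normexp correction used the median pixel signal, since the columns hold no mean of the spot.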

Additional observations from a re-analysis of the deposited data

How the results depend on the processing

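The counts of HoxB genes called (5, 8, 8, 5, 7 and 4 of 8, in RASV12-first against shp53-first, RASV12 and shp53, in shp53-first against RASV12 and shp53, and in RASV12 against shp53) were the same under quantile scaling, a filter on all arrays, the authors' log2 table and the replicate block. The block, which is also the slide, again gave 5, 8, 8, 5, 7 and 4. With only the 2 groups in the fit and the replicate block, chosen after seeing the data, shp53-first against RASV12 had 0 called and the 2 orders 6. Normexp correction gave 0, 2, 2, 0, 1 and 0, and 4, 8, 8, 4, 7 and 3 with extreme local backgrounds replaced (chosen after seeing the data). Averaging the closest arrays gave 2, 2 and 0 in RASV12-first against shp53-first, RASV12-first against RASV12 and shp53-first against RASV12, and 1 in RASV12 against shp53. The 2 orders alone in the fit gave 2, and an adjusted p under 0.01 gave 3 for the 2 orders and 2 for shp53-first against RASV12. Leaving out 1 array gave 3 to 6, 8 to 8, 7 to 8, 2 to 6, 6 to 7 and 3 to 5, and leaving out the 4 arrays that stood apart gave 7, 8, 8, 7, 7 and 5. Those 4 arrays were chosen as the ones outside the closest pair of each group. That choice lowers the spread within groups, so more calls were favoured in advance. The 7 between the 2 orders included Hoxb3 as lower in RASV12-first cells (-0.38, limma adjusted p = 0.0343). Scaling to the array median moved the median of all genes by 0.25, 0.26 and 0.34 in the 3 comparisons of RASV12-first cells and by 0.01 to 0.09 in the others, and gave 6, 8, 8, 4, 6 and 3. The share of all genes called under each alternative is not given here, so these counts do not show a change particular to the HoxB genes. The cause of these changes was not tested.

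Of 1560 values of single genes under alternatives, 1407 kept their direction and their side of the threshold, 119 lost and 15 gained a call, and 19 changed sign. Sign changes in RASV12-first against shp53-first were Hoxb3 with the mean of its probes (0.59) or its dimmer probe (1.55) and Hoxb4 with normexp (-0.36). With the dimmer probe Hoxb3 was also at -0.61 in shp53-first against RASV12 and -0.60 against shp53. Hoxb6 in shp53-first against RASV12 was at -0.0788 with normexp, -0.023 with backgrounds replaced, -0.13 with arrays averaged and -0.16 to 0.33 with 1 array left out. Hoxb8 in shp53-first against shp53 was at -0.14 with normexp, -0.046 with arrays averaged and -0.18 to 0.60 with 1 array left out. Hoxb2 in RASV12 against shp53 was at -0.025 to 0.22 with 1 array left out, Gm53 there at -0.65 with normexp, and Hoxb5os in RASV12-first against RASV12 at 0.14 with median scaling.

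Hoxb8 was called between the 2 orders in 14 of 26 alternatives, Hoxb7 in 20, Hoxb6 in 23, and Hoxb5 and Hoxb9 in 25. Hoxb1 and Hoxb13 lay at or near background and were not tested, and 3 arrays a group limit the precision of all values.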
